A study of Bos taurus with 12 samples.

Results

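Antigen presentation on major histocompatibility complex (MHC) class I was followed through the differentiation of bovine myoblasts in 8 of the 18436 genes of the deposited expression table, and in their 16 m6A peaks among the 40529 peaks of both deposited peak lists. The genes are TAP1, TAP2, TAPBP, B2M, PSMB8, PSMB9, NLRC5 and CD274, which encodes PD-L1, and were found in the table and lists by gene name. Proliferating primary myoblasts of newborn Qinchuan cattle, taken from the longissimus dorsi and held in growth medium with 20% fetal bovine serum (GM), were compared with myotubes kept for 4 days in differentiation medium with 2% horse serum (DM). There were 3 cultures a group, each sequenced as total mRNA fragments (input) and after m6A immunoprecipitation (IP), for 12 libraries altogether. The myoblasts are described as coming from a single newborn animal, so the spread between libraries is that between cultures and not between animals. No transgene or drug treatment is described for these libraries, apart from penicillin and streptomycin in both media, and both groups were unsorted cultures.

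Every nucleated cell can show fragments of its own proteins on MHC class I. The proteasome cuts the proteins, the TAP1/TAP2 transporter carries the peptides into the endoplasmic reticulum, and tapasin (TAPBP) holds the empty class I molecule, made of a heavy chain and beta-2-microglobulin (B2M), at the transporter until a peptide is bound. Interferon gamma exchanges the catalytic subunits of the proteasome for PSMB8, PSMB9 and PSMB10, drives transcription of the pathway through IRF1 and the transactivator NLRC5, and induces PD-L1, the ligand that restrains T cells through PD-1. Resting skeletal muscle fibres are known for low class I display.

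TAP2, PSMB8, TAP1 and PSMB9 lie side by side in 54.8 kb of chromosome 23 (7138546 to 7193342, ARS-UCD1.2), with no other gene of the table between them. TAP1 on the minus strand and PSMB9 on the plus strand start head to head, 256 bases apart. TAPBP lies on the same chromosome, 280237 bases beyond PSMB9 (7473580 to 7484202, minus strand). B2M is on chromosome 10 (103116503 to 103123174, plus strand), NLRC5 on chromosome 18 (25044850 to 25102326, plus strand) and CD274 on chromosome 8 (39246075 to 39263677, minus strand).

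The genes were chosen by name with measured values of this same GM to DM contrast known, namely the FPKM of the input libraries and the m6A fold enrichments, so both are given as a description with no test. Expression is given as FPKM, fragments per kilobase of exon scaled to the mapped fragments of the library, and a fold change as the difference of mean log2(FPKM + 1), DM minus GM, with its standard error (SE) from limma. The added 1 understates the change of weakly expressed genes. A gene met the calling rule when its Benjamini-Hochberg adjusted p over all 12302 tested genes was under 0.05 and its fold change over 1.5. In bulk RNA a lower FPKM can come from fewer cells of a type or from less RNA per cell, which cannot be told apart.

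Of the proteasome subunits, PSMB8, which replaces the chymotrypsin-like subunit in the immunoproteasome, had 9.27, 8.64 and 8.06 FPKM in GM and 4.49, 5.27 and 3.21 in DM. The groups did not overlap, and the mean in GM was 2.0 times that in DM (8.66 ± 0.603 against 4.32 ± 1.04, SD, n = 3 each), with a log2 fold change of −0.88 (SE 0.136). PSMB9, which replaces the caspase-like subunit, had 2.04, 1.96 and 2.04 FPKM in GM and 0.838, 1.66 and 1.53 in DM. Its groups did not overlap either, but the first DM library lay lowest, and the log2 fold change of −0.38 (SE 0.135) was −0.22 without that library.

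For the transporter, TAP1 had 1.96, 1.89 and 1.96 FPKM in GM and 1.57, 1.36 and 1.16 in DM, a log2 fold change of −0.32 (SE 0.0835). Every DM library lay under every GM library. TAP2 had 7.44, 7.36 and 7.34 FPKM in GM and 7.15, 6.91 and 6.91 in DM. The groups were narrowly apart, the log2 fold change was −0.07 (SE 0.053), and it was −0.01 after median-ratio scaling and turned to 0.04 on TPM. TAP2 had the higher FPKM of the transporter pair in each library (means of 7.38 against 1.94 in GM and 6.99 against 1.36 in DM).

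Among the members of the loading complex, TAPBP was abundant, with 52.3, 51.5 and 50.9 FPKM in GM and 39.6, 43.3 and 36.8 in DM. Its groups did not overlap, and the log2 fold change was −0.36 (SE 0.0632). B2M, the light chain of class I, had 65.5, 63.4 and 73.4 FPKM in GM and 66.9, 84.0 and 71.8 in DM. These values overlapped, and the log2 fold change of 0.13 (SE 0.091) ranged from 0.04 to 0.20 as single libraries were left out. B2M had the highest FPKM of the 8 genes in both groups.

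NLRC5, the class I transactivator, was near the floor in all libraries, with 0.121, 0.130 and 0.0631 FPKM in GM and 0.0784, 0.0482 and 0.0876 in DM. The groups overlapped, and NLRC5 stayed out of the fit because its mean was under 0.5 FPKM. CD274 had 1.56, 1.37 and 1.14 FPKM in GM and 3.51, 3.0 and 4.17 in DM. It was the only one of the 8 genes whose DM libraries all lay above the GM libraries, with a mean ratio of 2.62 (1.36 ± 0.207 against 3.56 ± 0.587 FPKM, SD, n = 3 each) and a log2 fold change of 0.95 (SE 0.111).

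**Figure D1:**
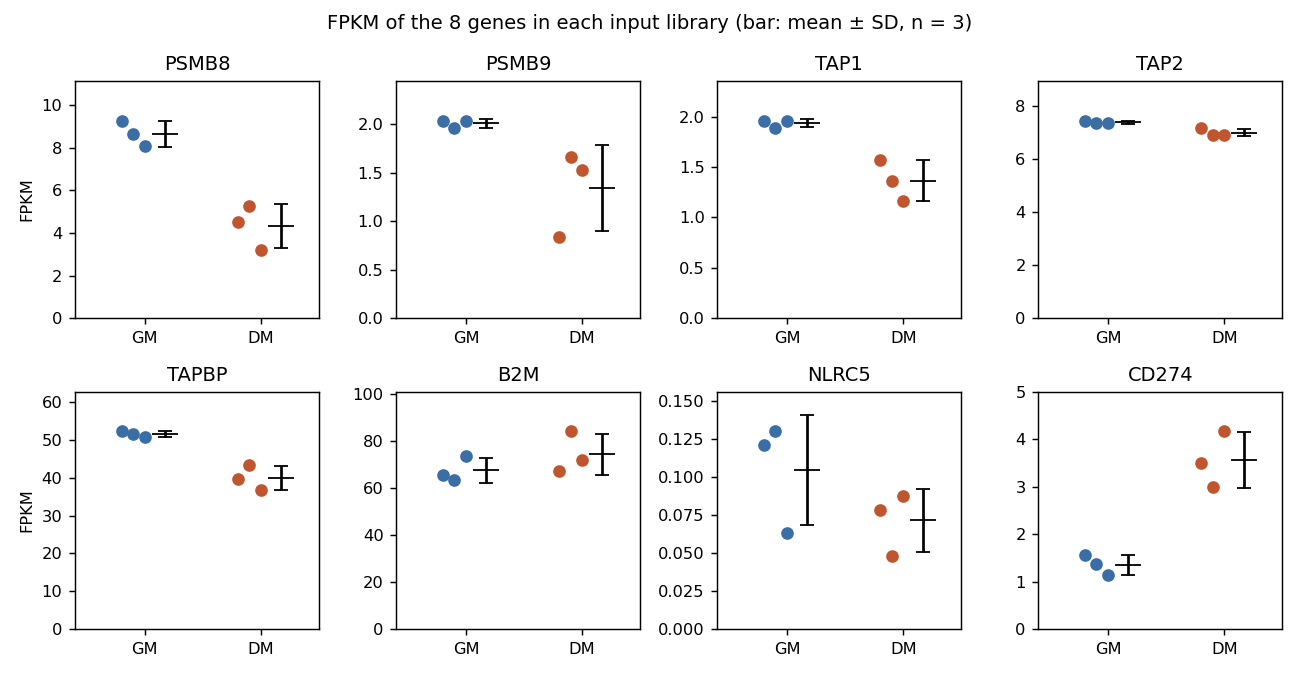
FPKM of the 8 genes (y axis, from 0, a scale of its own for each gene) in the 3 GM (blue) and 3 DM (orange) input libraries, with mean ± SD. CD274 lies higher in DM (3.0 to 4.17 against 1.14 to 1.56), PSMB8 lower (3.21 to 5.27 against 8.06 to 9.27), and B2M and NLRC5 overlap between the groups.

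Of the 7 genes that were tested, 5 had all DM libraries below all GM libraries, as did 33.0% of all tested genes, and 1 had them above, as did 21.1%. The calling rule was met by 1 gene lower in DM, PSMB8 (6.88% of all tested genes), and 1 higher, CD274 (4.89%). Because the genes were picked with this contrast in view, nothing is read from these shares. As each library was left out, the log2 fold change ranged from −1.0 to −0.72 for PSMB8 and from 0.85 to 1.04 for CD274. The median log2 fold change was −0.32 over the 7 genes and −0.05 over all tested genes, the latter moving to 0.06 on TPM. Relative to the median of all genes, PSMB8 stood at −0.82, PSMB9 at −0.33, TAPBP at −0.31, TAP1 at −0.27, TAP2 at −0.02, B2M at 0.18 and CD274 at 1.00.

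The immunoproteasome subunits take the place of constitutive ones, PSMB8 that of PSMB5, PSMB9 that of PSMB6 and PSMB10 that of PSMB7, so each was set against its partner in the same library. PSMB8 amounted to 12.9, 11.7 and 10.4 FPKM per 100 FPKM of PSMB5 in GM and to 9.60, 10.2 and 6.50 in DM. PSMB9 stood at 2.03, 1.95 and 1.69 per 100 of PSMB6 in GM, and DM libraries had 1.18, 2.34 and 2.16, which overlapped, with equal means of 1.89. PSMB10 per 100 of PSMB7 came to 8.40, 7.89 and 8.52 in GM and 11.5, 16.7 and 11.2 in DM. The ratio to the partner was thus narrowly lower in DM for PSMB8, higher for PSMB10, and overlapping for PSMB9. In each pair and library the constitutive subunit was the more abundant one.

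**Figure D2:**
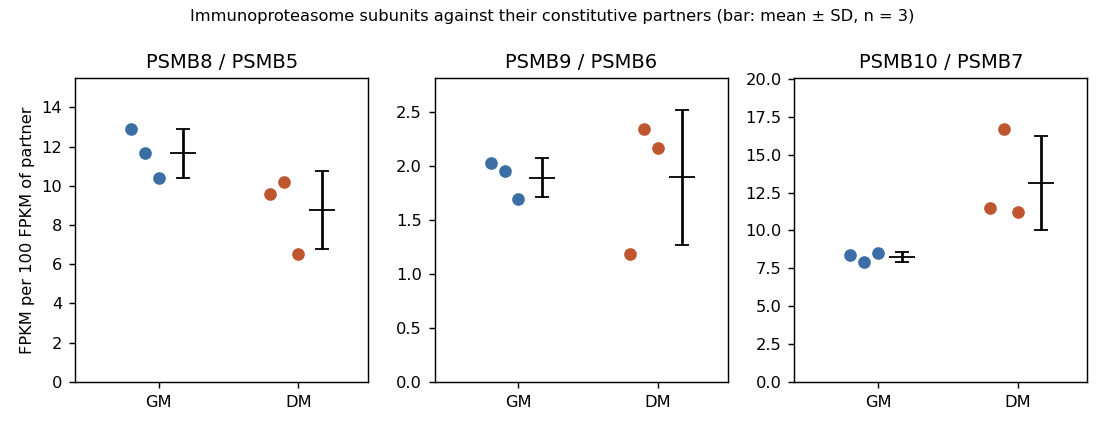
FPKM of each immunoproteasome subunit per 100 FPKM of the constitutive subunit it replaces (y axis, from 0) in the 3 GM (blue) and 3 DM (orange) input libraries, with mean ± SD. The DM libraries lie lower for PSMB8 to PSMB5 and higher for PSMB10 to PSMB7, and overlap with GM for PSMB9 to PSMB6.

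To place the 8 genes in their pathway, 8 lists of other genes, drawn up by function, were read from the same fit. These lists were also chosen with earlier results of these data known, so their counts and shares are a description only. Of 89 genes measured, 80 were tested, 1 was called higher in DM and 5 lower, that is 1.25% and 6.25% against 4.89% and 6.88% of all tested genes. By the adjusted p alone, without the limit on fold, 7 were higher and 34 lower (16.1% and 26.7% of all tested genes). Their median log2 fold change was −0.13.

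Among 12 genes of peptide loading and trimming, 3 chaperones fell and none rose (median −0.19), where 6.88% of all tested genes were called lower and 4.89% higher. By adjusted p alone 8 of the 12 were lower, against 26.7% of all tested genes. CALR, which keeps new class I heavy chains in the loading complex, fell from 778 ± 18.2 to 445 ± 26.0 FPKM (SD, n = 3 each, log2 fold change −0.80, SE 0.0573, limma Benjamini-Hochberg adjusted p = 1.7e-05). PDIA3, the disulfide isomerase bound to tapasin, fell by 0.77 (adjusted p = 1.5e-05), and HSP90B1, a general chaperone of the endoplasmic reticulum, fell by 0.78 (adjusted p = 1.1e-05). HSPA5, with the highest FPKM of the list (1100 in GM and 755 in DM), had a log2 fold change of −0.54 and did not pass the limit on fold, except without the third DM library (−0.59). CANX, a lectin chaperone, differed by −0.01 (SE 0.0602, adjusted p = 0.94).

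None of the 8 class I and class I-like heavy chains measured was called in either direction (0 of 8 by the limma calling rule). By adjusted p alone 1 was higher and 0 lower, against 16.1% and 26.7% of all tested genes. The counts were the same at an unadjusted p under 0.05. The classical chain listed as BoLA had 11.6 ± 0.213 FPKM in GM and 11.9 ± 2.92 in DM, a log2 fold change of 0.00 (SE 0.152, limma adjusted p = 0.99). The gene with an adjusted p under 0.05 was FCGRT, the neonatal Fc receptor, at 0.37 (16.4 ± 0.624 FPKM in GM and 21.4 ± 0.839 in DM, limma adjusted p = 0.00099). Class I chains are close copies of each other and vary between animals, so reads may be shared among them.

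The 20 other proteasome genes held no call in either direction (0 by the limma calling rule). By adjusted p alone the catalytic and regulatory genes had 1 higher and 5 lower, against 16.1% and 26.7% of all tested genes. Their counts were the same at an unadjusted p under 0.05. Of the 11 structural core subunits, however, 11 had a lower level in DM by adjusted p alone and by unadjusted p (log2 fold changes of −0.57 to −0.19, median −0.41), where 26.7% of all tested genes had. Abundant examples were PSMA7 (−0.38, adjusted p = 0.0032) and PSMB1 (−0.46, adjusted p = 0.00036). PSMB5, PSMB6 and PSMB7, the constitutive partners, stood at −0.58, −0.58 and −0.48, the first 2 just inside the fold limit, and the activator subunits PSME1 and PSME2 at −0.56 and −0.55 (adjusted p = 0.00034 and 3.9e-05). PSMB10 was at 0.14 (adjusted p = 0.40), and PSME4, the nuclear activator, at 0.46 (adjusted p = 0.0018), past the fold limit on TPM (0.60). In the settings that left out 1 library, PSMA5, PSMB5, PSMB6 or PSME1 passed the limit in 4 or fewer of 6. On TPM these genes stood nearer to no change, at −0.45, −0.46, −0.46 and −0.44. The count of 11 core subunits was not repeated on TPM.

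Among 15 transcription regulators of class I, 2 fell and none rose, against 6.88% and 4.89% of all tested genes, and 4 were lower by adjusted p alone (26.7% of all). IRF1, an interferon-induced activator that binds class I promoters, fell from 13.3 to 15.1 FPKM in GM to 4.65 to 6.44 in DM, the largest change of the regulators (log2 fold change −1.20, SE 0.102, limma adjusted p = 4.6e-05). RFX5, a subunit of the complex on which NLRC5 assembles, fell by 0.60 (4.21 ± 0.214 to 2.43 ± 0.206 FPKM, SD, n = 3 each, limma adjusted p = 0.00033), and this call was lost without the second GM library (−0.58) or the first DM library (−0.57) and after median-ratio scaling (−0.55). USF2, an E-box binding activator, differed by 0.11 (adjusted p = 0.18).

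The 13 genes of interferon gamma signalling tested held no call (0 by the limma calling rule). By adjusted p alone 4 were higher and 3 lower, against 16.1% and 26.7% of all tested genes. At an unadjusted p under 0.05 the counts were 5 and 3. The receptor chain IFNGR2 stood at 0.15 (limma adjusted p = 0.026) and STAT3 at 0.28 (adjusted p = 0.0035). The 3 lower genes were IFNAR2 and IFNAR1, both of the type I receptor, at −0.52 and −0.42 (adjusted p = 0.00026 and 0.0019), and PTPN2 at −0.25 (adjusted p = 0.015). No chain of the interferon gamma receptor was among them. Among 10 tested partners of PD-L1 and other co-signalling ligands, PVR, a nectin-like ligand of DNAM-1 and TIGIT, rose from 26.1 ± 0.705 to 57.5 ± 1.08 FPKM (SD, n = 3 each, log2 fold change 1.11, SE 0.0467, limma adjusted p = 1.1e-06). CMTM6, which keeps PD-L1 at the cell surface, differed by −0.04 (SE 0.079, adjusted p = 0.71), and CD47, the most abundant of the list, by −0.03 (adjusted p = 0.82). PVR was the 1 gene of this list called higher and 0 were called lower, against 4.89% and 6.88% of all tested genes. By adjusted p alone 1 was higher and 3 lower (16.1% and 26.7% of all tested genes), the lowest at −0.27. PDCD1LG2, the other PD-1 ligand, was under 0.02 FPKM on average in both groups and was not tested.

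**Figure D3:**
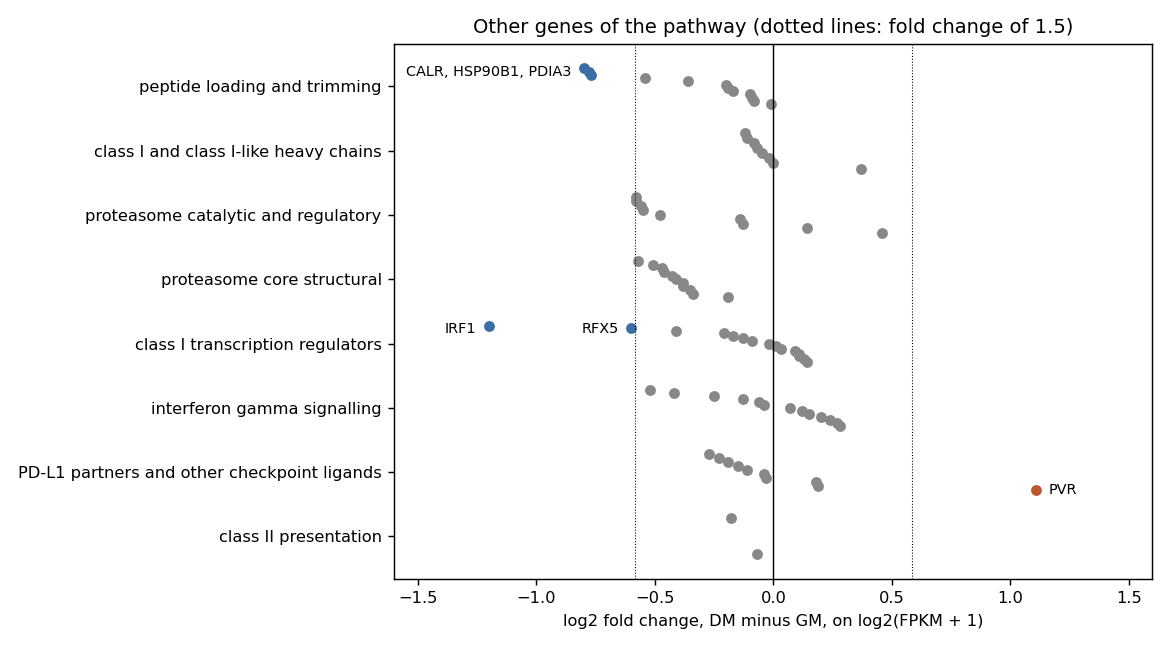
Log2 fold change (x axis, DM minus GM on log2(FPKM + 1)) of the 80 tested pathway genes, 1 point a gene, in 8 lists (y axis), with dotted lines at a fold change of 1.5. The genes called are named, 5 lower in blue (CALR, HSP90B1, PDIA3, IRF1, RFX5) and PVR higher in orange, and the proteasome lists lie left of 0 with the exception of PSMB10 and PSME4.

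The cultures carried muscle and connective tissue markers and few of blood cells. Of the 10 myogenic markers, 3 rose in DM (log2 fold changes of 1.97 for CKM, 1.27 for MYH3 and 1.39 for TNNT3) and 3 fell (−1.97 for MYF5, −1.28 for MYOD1 and −0.64 for ACTA1), with limma adjusted p of 0.011 or less for each. Of all tested genes, 4.89% were called higher and 6.88% lower. MYOG, MYMK and DES were not called (log2 fold changes of 0.31, 0.21 and 0.11), though MYOG was higher by limma adjusted p alone (0.0046). They stood at 197, 41.1 and 453 FPKM in GM. MYH3 had 273 FPKM in GM, and CKM and TNNT3 had 10.2 and 6.66, so markers of differentiation were already expressed in that group. PAX7 had 1.08 FPKM in GM and 0.0624 in DM and passed the filter on low values only through GM, so it is not counted. The 8 fibroblast markers were all measured, COL1A1 at 6790 FPKM in GM and 7420 in DM, and none was called (0 by limma). By adjusted p alone 3 were higher and 1 lower, against 16.1% and 26.7% of all tested genes, with the same counts at an unadjusted p under 0.05. Of 16 leukocyte markers 11 were in the table, none at 0 in all libraries, and they summed to 4.05 to 4.67 FPKM in GM and 2.28 to 3.48 in DM. The highest were FCER1G (1.48 FPKM in GM and 0.884 in DM) and CD68 (1.17 and 1.47, the higher value in DM), levels near those of TAP1 and PSMB9. LCP1 had 0.909 and 0.175 FPKM and reached the filter on low values only through GM. CD14, CD3D, CD4, CSF1R and TYROBP were each under 0.3 FPKM on average. The 6 endothelial markers summed to under 1 FPKM, 5 adipocyte markers to 1.44 to 2.75 FPKM, and of 5 class II genes measured BOLA-DMB had the highest level (1.22 and 1.12 FPKM), with CD74 and CIITA under 0.02. The leukocyte sum was lower in DM, as PSMB8, PSMB9 and TAP1 were, while CD274 was higher there. The part of such cells in these values was not tested.

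The input libraries differed little within a group, with Pearson r of log2(FPKM + 1) across genes of 0.995 to 0.997 in GM and 0.997 in DM, against 0.981 to 0.983 between the groups. The FPKM of a GM library summed to between 415740 and 434458, and those of a DM library to between 386436 and 390827. Over these 6 libraries the genes most like TAP1 were CASQ1, RPL17 and ST3GAL1 (Pearson r 0.9996, 0.9964 and 0.9949), those most like TAP2 were DUSP7, MTMR7 and INTU (0.9972, 0.9906 and 0.9901), and those most like CD274 included TBC1D20 and ADGRL2 (0.9999 and 0.9982). The 6 points fall into 2 groups and share their libraries, so these values are a description only.

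The m6A lists give, for each peak called on the pooled libraries of a group, the fold enrichment of IP over input, with 1 value per group and no replicate error. m6A is a methyl mark on adenosines of mRNA, found mostly in long exons and near stop codons, and it can alter the stability and translation of a transcript. The 8 genes held 10 of the 19739 GM peaks and 6 of the 20790 DM peaks. TAP1 and PSMB9 had no peak in either list. Among the 7 genes tested for expression, 5 had a GM peak and 3 a DM peak, where 70.9% and 78.7% of all tested genes had. The peaks of all 8 genes, untested NLRC5 included, were annotated to the 3′UTR in 4 GM and 3 DM cases, to other exons in 6 and 2, and to a 5′UTR in 0 and 1.

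CD274 had 3 weak peaks in GM and 1 stronger peak in DM. The GM peaks had fold enrichments of 1.58 (chr8:39246253-39247705, 3′UTR, false discovery rate 0.013), 1.77 (chr8:39251519-39257415, exon 3 of 7, 0.0058) and 1.68 (chr8:39257534-39257712, exon 3 of 7, 0.04). At least 84.9% of the GM list was as high as each of these. The DM peak reached 3.91 with a false discovery rate of 3.2e-38 (chr8:39246075-39251667, 3′UTR) and stood above the median of the DM list (3.38). The DM peak covered 594 exonic bases in 4 blocks from the annotated 3′ end of the gene, all 60 bases of the first GM peak and 149 of the 238 bases of the second. That second GM peak had blocks of 224 bases (chr8:39251519-39251742) and 14 bases (chr8:39257402-39257415). All 149 shared bases lay in the block of 224, so the label of exon 3 is that of the whole peak and does not place them. CD274 spans 17603 bases in the table and 20455 in the RefSeq annotation of ARS-UCD2.0. Whether both end at the same 3′ base was not settled, so the 3′ positions hold for the shorter gene model. As the DM peak overlapped 2 GM peaks, it entered no pair of 1 peak with 1 peak. Its block at the annotated 3′ end had 216 bases, and the blocks of 60, 108 and 210 bases lay in exons upstream. The fold enrichments of the GM and DM peaks are thus taken over different bases. CD274 had its higher FPKM and its peak of highest fold enrichment in DM. The part of coverage in this difference was not tested.

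TAP2 had 2 peaks in each list. At its 3′ end the GM peak (chr23:7138965-7139084, 120 bases, fold enrichment 3.15) lay wholly within the DM peak (chr23:7138546-7139174, 629 bases, 3.69), a log2 ratio of 0.23. The internal peak had a fold enrichment of 50.1 in GM (chr23:7162047-7162837, exon 9 of 11) and 3.73 in DM (chr23:7146006-7162392, annotated to a 5′UTR), a log2 ratio of −3.75. Only 22 GM peaks, 0.111% of the list, were as high. These internal peaks shared 121 bases, 36.7% of the GM and 40.3% of the DM exon length. The GM peak had a block of 115 bases that the DM peak lacked, and the DM peak a block of 26 bases far downstream on the transcript. This pair was lost when both peaks had to overlap by 50%. TAP2 spans 30729 bases in the table and 7760 in the RefSeq annotation of ARS-UCD2.0, and the internal GM peak lies 23501 bases upstream of the annotated 3′ end. From the annotated transcription start, the 3′ peaks lie 29643 (GM) and 29553 (DM) bases away and the internal peaks 5890 and 6335. A gene of 7760 bases could not hold both pairs. The builds differ, so which pair lies in the coding TAP2 transcript was not settled. The values of both pairs, the enrichment of 50.1 and the ratio of −3.75 among them, hold for the longer gene model of the table.

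**Figure D4:**
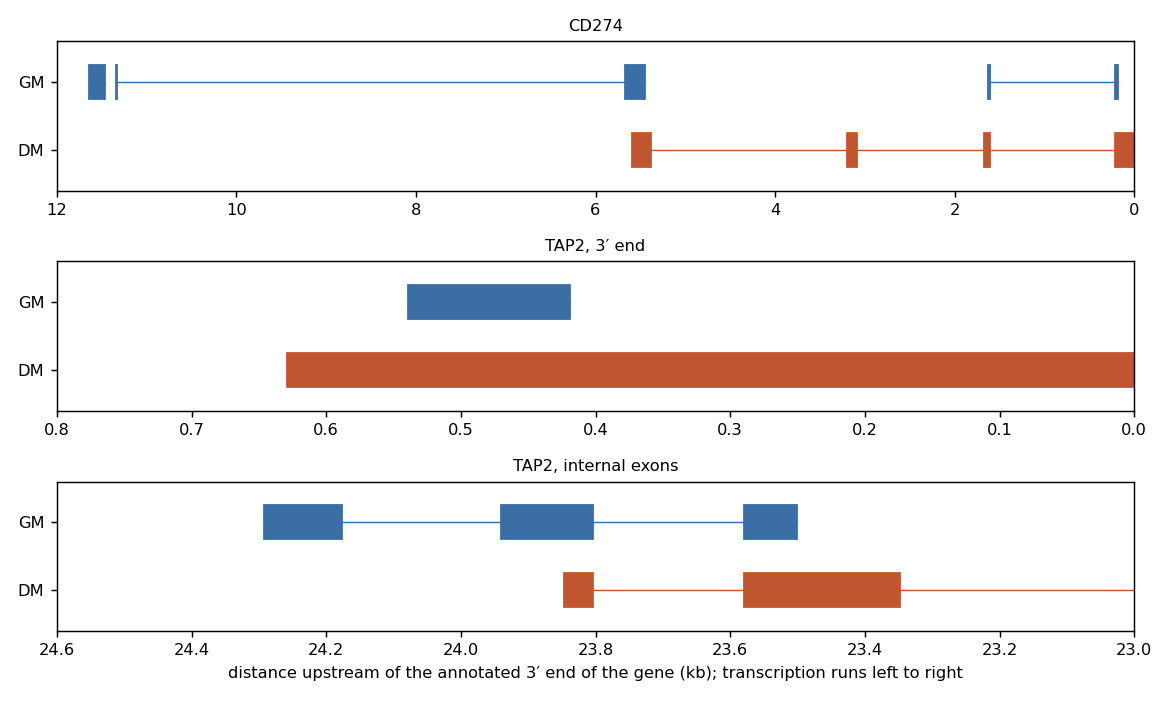
Exon blocks of the m6A peaks of CD274 (top), the 3′ end of TAP2 (middle) and internal exons of TAP2 (bottom) in the GM list (blue) and DM list (orange), with thin lines joining the blocks of 1 peak and the x axis giving the distance in kb upstream of the annotated 3′ end. The DM peak reaches the annotated 3′ end in CD274 and TAP2, which for TAP2 is that of the longer gene model. The internal peaks of TAP2 overlap in 121 bases, with a further DM block beyond the right edge of the axis.

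TAPBP held the best matched pair, at the last bases of its 3′UTR. The GM peak (chr23:7473580-7473939) lay wholly within the DM peak (chr23:7473580-7473969), and the fold enrichments were 2.11 and 1.96, a log2 ratio of −0.11. In the GM list 75.2% of peaks were at least as high, and in the DM list 77.2%. PSMB8 had a 3′UTR peak called in GM alone (chr23:7173038-7173213, 176 bases, fold enrichment 2.48, false discovery rate 6.9e-10). No DM peak was called, in the group where its FPKM was lower. A peak that is not called is not shown to be unmethylated, and the part of the lower FPKM was not tested.

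B2M had a single GM peak over exon 1 and a further block (chr10:103116503-103120465, 178 bases, fold enrichment 9.80, false discovery rate 0.04). NLRC5 had GM peaks of 9.80 (chr18:25054111-25054471) and 7.62 (chr18:25054681-25054770) and DM peaks of 7.45 (chr18:25054531-25054890) and 4.26 (chr18:25100850-25102326), and only the first had a false discovery rate under 0.05 (0.023). These high enrichments came with weak p-values. They are also values that recur in the lists, since 255 GM peaks read 9.80, 422 read 7.62, and in DM 448 read 7.45 and 377 read 4.26. The recurring values were whole multiples of 1.089 in GM (7 and 9 steps here) and of 1.065 in DM (4 and 7 steps), and the p-value of the B2M peak (0.0076) was shared by 137 of the 255 GM peaks at 9.80. The TAP2 value of 50.1 also lay on a multiple, of 46 steps, to within its last digit, which is a loose match at so many steps. Unlike the others, this value was held by only 2 GM peaks, and its exomePeak p-value was 1.6e-15. Reads per peak were not analysed here, and the part of low coverage in these values was not tested.

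**Figure D5:**
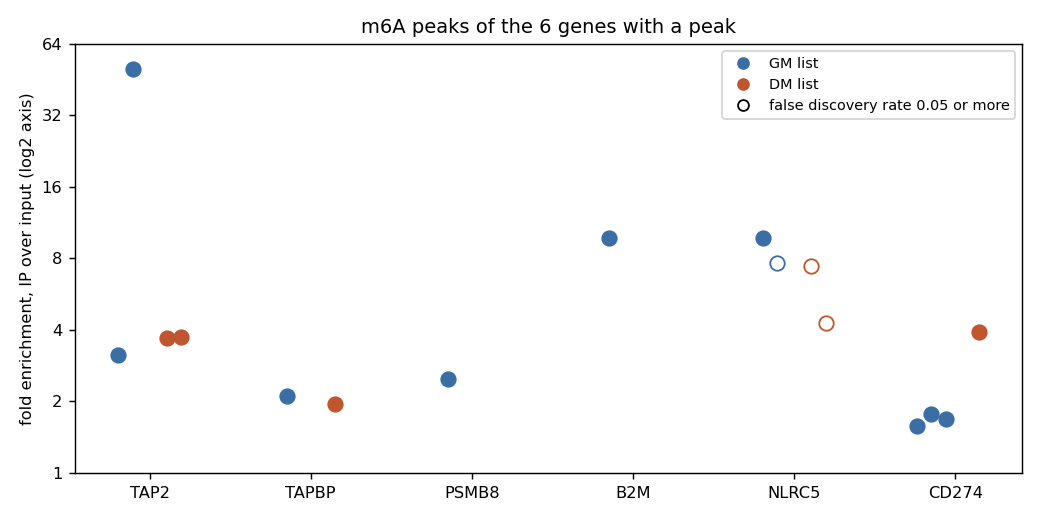
Fold enrichment of IP over input (y axis, log2 scale) of the 10 GM peaks (blue) and 6 DM peaks (orange) of the 6 genes with a peak, with open points for a false discovery rate of 0.05 or more. TAP2 has the highest value (50.1, GM), CD274 is near 1.7 in GM and at 3.91 in DM, and 3 of the 4 NLRC5 peaks are open.

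In pairs of exactly 1 GM and 1 DM peak, a change of fold enrichment of over 1.5 times occurred in 1 of 4 pairs of these genes, the internal TAP2 pair of the longer gene model, which was lower in DM. Of all 10239 pairs, 10.8% were lower and 14.2% higher by as much. Of the 10 GM peaks, 4 had no overlapping DM peak (in B2M, PSMB8, NLRC5 and CD274), as had 14.7% of the GM list, and 1 of the 6 DM peaks, in NLRC5, had no overlapping GM peak, as had 28.7% of the DM list. Since the genes were picked with these lists in view, nothing is read from these shares.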

How the data were processed

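Input and m6A-IP libraries of 3 GM and 3 DM cultures were sequenced by the authors, trimmed (the methods name Trimmomatic, the submitters' processing notes cutadapt and fastp), aligned with HISAT2 to ARS-UCD1.2 and quantified with StringTie. The deposited gene table holds the resulting FPKM of the 6 input libraries. The deposited peak lists come from exomePeak on the pooled libraries of each group, annotated with ChIPseeker; the authors' fold enrichment is a linear ratio of IP over input. The score column deposited by the authors is the unadjusted p-value of a peak, and further deposited columns hold log10 of the p-value and of its false discovery rate. Versions are not given in the sources used here. Read depth per library was not analysed here, so no counting interval was set.

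The 8 genes and all gene lists were chosen with earlier results of these data known. JSP was added to the class I list once the names in the table were seen. Expression was fitted with limma 3.58.1 in R 4.3.3 on log2(FPKM + 1) with a variance trend, for 12302 genes (mean FPKM 0.5 or more), and adjusted by Benjamini-Hochberg. No count test was run because counts were not used here. A gene name with 2 entries was read from the more abundant one. The genes named are the 8, their constitutive proteasome partners, for each list the called genes (up to 5) and the 2 most abundant, and others singled out after their values were seen (CANX, PDCD1LG2, IFNAR1, IFNAR2, PTPN2, PSMA5, PSME2, PSME4, PSMB10, CD74, CIITA, MYOG, MYMK and the blood cell markers). For TAP1, TAP2 and CD274, the 3 genes of highest Pearson r are named. A gene of the regulator list and one of those most like CD274 are not reported here. Peaks were paired in Python 3.11.15 with pandas 2.3.3 by an overlap of at least 1 exonic base on the same strand. Steps were tested on simulated data. Alternatives covered the pseudocount, filter, scaling, replicate block, variance trend, thresholds, single libraries, peak strictness and overlap.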

Additional observations from a re-analysis of the deposited data

How the results depend on the processing

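On TPM, 1046 genes were called higher in DM and 2 of the pathway genes (PVR and PSME4), and the share of all calls that were higher went from 41.6% to 55.1%. TPM values were larger than FPKM, so the same added 1 and filter weighed less there, and 13494 genes were tested. After median-ratio scaling 678 genes were called higher and 706 lower, a share of 49.0% higher, and 1 and 4 of the pathway genes. Without the limit on fold, 1980 of all tested genes were called higher and 3288 lower, and 7 and 34 of the pathway genes. As single libraries were left out, 5 to 8 pathway genes were called lower, with 8 without the third DM library, where HSPA5, PSMA5 and PSMB5 joined the 5. A false discovery rate under 0.001 left 4 of the 10 GM peaks of the 8 genes, and asking both peaks of a pair to overlap by 50% left 0 pairs lower in DM, because the internal TAP2 pair shared too little length. CALR, HSP90B1, PDIA3, IRF1 and PVR were called in 14 of 14 alternatives that kept the limit on fold and RFX5 in 11. With a pseudocount of 0.1 the log2 fold change was 1.33 for CD274, −0.60 for PSMB9 and −0.49 for TAP1, and on TPM it was 1.27 for CD274, 0.26 for B2M, −0.25 for TAPBP and 0.04 for TAP2.

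With the replicate number as a block, 603 genes were called higher and 856 lower, and 1 and 5 of the pathway genes. The log2 fold changes of the 7 fitted genes were the same with the block, as they must be where each number holds 1 GM and 1 DM library. The numbers were not taken as pairs, since the deviations of same-numbered GM and DM libraries from their group means correlated at −0.08, −0.12 and −0.21. FPKM carry no read counts, so the precision of low genes such as NLRC5, TAP1 and PSMB9 rests on 3 libraries a group alone, and peaks have no replicate error.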
